A study of Ovis aries with 40 samples.

Results

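CDR1, BEX5 and the unnamed loci LOC106991688 and LOC780463 are 4 genes whose levels in fetal sheep lung before term were lower in CF than in WT animals. They are 4 of the 24478 genes in the count tables. They were chosen by name because their levels in CF before term lay below those in WT, so the CF against WT values before term are given as a description and carry no test.

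Bulk RNA from proximal and distal lung was sequenced in 40 libraries, with 2 libraries for each of 20 combinations of genotype, region and age. The ages were 65, 80, 100 and 120 days of gestation and 147 days (term), and day 50 was not analysed here. Animals of both genotypes were of the American Romney breed. WT animals came from natural breeding and carried no targeted allele. CF animals (CFTR-/-) were clones, made by nuclear transfer from 1 male line of fetal fibroblasts, CF 60, targeted in 1 exon of CFTR, so all 20 CF libraries share 1 donor cell line. Cloning, donor line and the targeted CFTR allele therefore cannot be told apart between the genotypes. The paper gives no sex for the WT animals, so sex may differ between the genotypes too. CDR1 and BEX5 lie on chromosome X. The labels name no treatment of the fetuses, while ewes of both groups were given a prostaglandin analogue to time estrus. WT term animals had been born, with some time between birth and sampling. The labels name 9 WT and 10 CF animals. At day 100 the 2 WT libraries of each region name 1 animal, and 1 label appears both for WT at day 65 and for CF at day 100, where libraries were placed by title. The p-values measure the spread between these libraries.

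CDR1 encodes an antigen first recognised by antibodies in cerebellar degeneration. The opposite DNA strand at this locus gives rise to a circular RNA that is abundant in brain and carries many binding sites for the microRNA miR-7. BEX5 belongs to the brain expressed X-linked family, a cluster of genes for small signalling adaptor proteins that stands beside the related TCEAL, ARMCX and GPRASP genes on the X chromosome. The other 2 genes have no symbol in the tables or in the RefSeq table used for names, and no function is given for them here.

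Depth and genotype coincided before term. The 16 WT libraries before term held 24670355 to 43700012 counted reads and the 16 CF libraries 85773994 to 103139483. At term the ranges were close, at 115937437 to 126749480 reads in WT (n = 4) and 117316905 to 119451372 reads in CF (n = 4). Levels are CPM, counts scaled to library size after TMM normalization over the 40 libraries. CFTR itself was counted at 11.0 to 43.8 CPM in WT and 4.99 to 34.9 CPM in CF before term, and at 9.58 to 14.8 CPM and 3.65 to 5.14 CPM at term. Counts summed over all exons do not check an edit in 1 exon. Lung epithelial markers were present throughout, with a summed level of 782 to 27304 CPM. Replicate 2 of CF proximal lung at day 120 stood apart from replicate 1, with 19004 against 5248 CPM for the 10 epithelial markers, of which the surfactant gene SFTPC alone made up 16119 CPM in replicate 2, and 186742 against 39735 CPM for 75 ribosomal protein genes.

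On Oar_v4.0, CDR1 lies on the plus strand at chrX:89397004-89399137, with 1806 exonic bases in 4 blocks. LOC106991688 lies on the minus strand at chr17:70563757-70565315, with 1124 exonic bases in 3 blocks. LOC780463 is a single block of 640 bases on the minus strand at chr19:40028892-40029531. BEX5 lies on the minus strand at chrX:126013971-126016473, with 1095 exonic bases in 8 annotated blocks of overlapping transcripts. None of the 4 overlapped another annotated gene. The strand setting of the counting is not stated, so at the CDR1 locus reads of CDR1 and of its antisense transcripts cannot be told apart.

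CDR1 had the largest fold difference between CF and WT before term of the 4 genes. In WT proximal lung before term the lowest, median and highest of 8 libraries were 32.5, 90.4 and 169 CPM, and in WT distal lung they were 36.5, 117 and 229 CPM. In CF proximal lung they were 1.41, 6.35 and 10.7 CPM, and in CF distal lung 2.01, 7.38 and 12.5 CPM. Every WT library before term was above every CF library before term, in both regions. The raw counts were 884 to 8349 in WT and 121 to 1245 in CF, although the CF libraries were deeper. Averaged over the 4 ages as log2 CPM with a prior count of 0.5, CF was lower by a log2 difference of -4.05 in proximal lung and -3.87 in distal lung, or 16.6-fold and 14.6-fold. The SD between replicates was 0.55 and 0.39 on the same scale.

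At term the order of the genotypes turned for CDR1. The WT libraries held 0.174 and 0.0502 CPM in proximal lung and 0.126 and 0.0702 CPM in distal lung, which rest on 6 to 20 reads. The CF libraries held 0.640 and 0.927 CPM in proximal lung and 0.411 and 0.869 CPM in distal lung, from 39 to 84 reads. All 4 CF libraries were above all 4 WT libraries at term. Both genotypes at term were below every earlier library of either genotype.

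**Figure D1:**
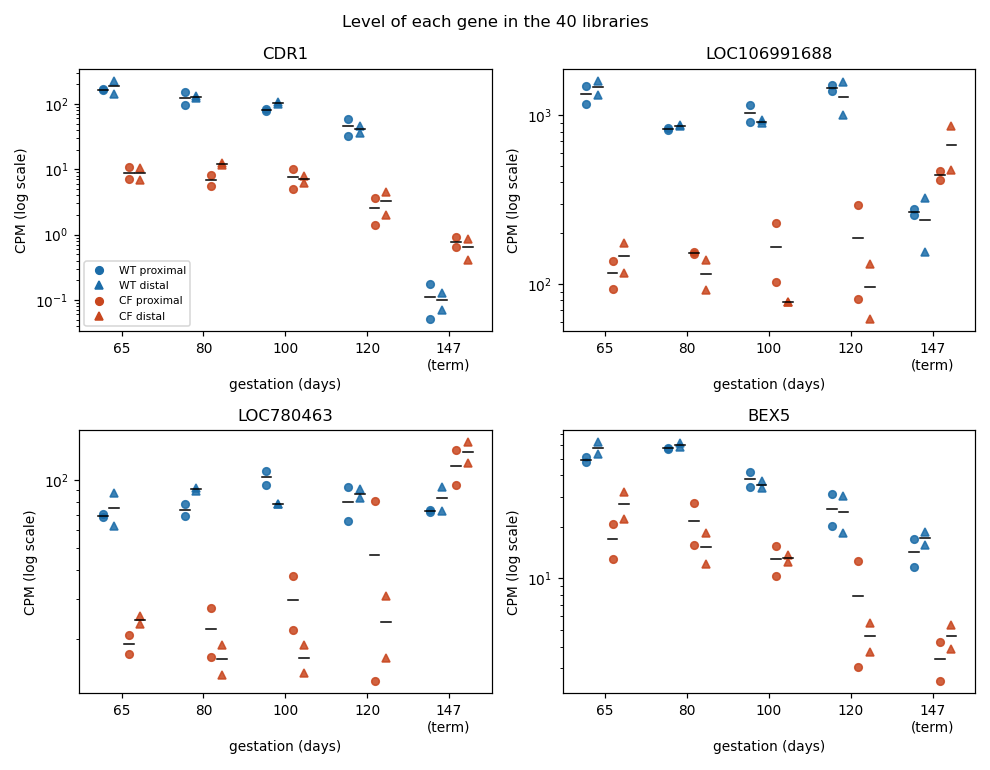
CPM on a log scale in each of the 40 libraries, by days of gestation, for each of the 4 genes. Blue symbols are WT, orange are CF, circles are proximal and triangles distal lung, and short black bars are the means of 2 libraries. CDR1 in WT lies between 32.5 and 229 CPM before term and at or below 0.174 CPM at term.

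LOC106991688 was the most abundant of the 4 genes. In WT before term its lowest, median and highest levels were 817, 1163 and 1514 CPM in proximal lung and 863, 970 and 1608 CPM in distal lung. In CF before term they were 81.2, 144 and 294 CPM in proximal lung and 61.8, 105 and 175 CPM in distal lung. No CF library reached the lowest WT library, and the log2 difference over the 4 ages was -2.99 in proximal and -3.41 in distal lung. The SD between replicates was 0.58 and 0.39. At term the WT libraries were at 278 and 256 CPM in proximal and 154 and 322 CPM in distal lung. The CF libraries at term were at 466 and 415 CPM in proximal and 472 and 866 CPM in distal lung. WT term libraries were therefore below every WT library before term, while CF term libraries were above every CF library before term.

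LOC780463 had nearly the same level in WT at all ages. The lowest, median and highest of the WT libraries before term were 65.7, 74.5 and 110 CPM in proximal lung and 62.7, 85.1 and 91.6 CPM in distal lung. The WT term libraries lay inside this range or just above it, at 73.8 and 72.5 CPM in proximal and 73.1 and 92.7 CPM in distal lung. In CF before term the values were 13.0, 21.4 and 80.7 CPM in proximal lung and 13.9, 18.7 and 30.9 CPM in distal lung. The 80.7 CPM came from replicate 2 of CF proximal lung at day 120, the library that stood apart above, and it was the 1 CF library that reached the WT range. The log2 difference before term was -1.69 in proximal lung, or -2.02 without that library, and -2.08 in distal lung. The SD between replicates was 0.73 and 0.30. In CF at term the libraries held 94.4 and 135 CPM in proximal and 119 and 146 CPM in distal lung, above the WT term libraries of the same region.

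BEX5 was lower in CF at every age including term. In WT before term the lowest, median and highest were 20.2, 45.1 and 58.2 CPM in proximal lung and 18.5, 45.1 and 62.5 CPM in distal lung. In CF before term they were 3.04, 14.3 and 27.5 CPM in proximal and 3.69, 13.1 and 32.0 CPM in distal lung. The ranges of the genotypes overlapped across ages, but within each age and region both CF libraries were below both WT libraries. The log2 difference over the 4 ages was -1.66 in proximal and -1.74 in distal lung, with an SD between replicates of 0.62 and 0.31. At term WT held 17.1 and 11.6 CPM in proximal and 15.7 and 18.6 CPM in distal lung, and CF held 2.50 and 4.26 CPM in proximal and 3.87 and 5.32 CPM in distal lung.

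Age by age, both CF libraries were below both WT libraries in 8 of 8 combinations of age and region for CDR1, LOC106991688 and BEX5. For LOC780463 this was so in 7 of 8, the exception being proximal lung at day 120. Of the 20779 genes kept over the 40 libraries, 4.81% met this at all 4 ages in proximal lung, 5.33% in distal lung and 3.05% in all 8 combinations, and since the 4 genes were chosen on this contrast nothing is read from the comparison. All WT libraries before term lay above all CF ones in proximal lung for 1.76% of genes and in distal lung for 1.64%. CDR1 and LOC106991688 were among the 151 genes (0.727%) with all 16 WT libraries before term above all 16 CF ones. CDR1 was 1 of the 25 genes (0.12%) with those 16 WT libraries above all 24 others. Over both regions 13 genes had a larger fall in CF than CDR1, 28 a larger one than LOC106991688, 152 than LOC780463 and 210 than BEX5. In bulk tissue, fewer cells of a type and less RNA per cell cannot be told apart.

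The difference between genotypes was present at each age, with different sizes. CDR1 differed by -4.25, -4.18, -3.51 and -4.27 log2 units in proximal lung at days 65, 80, 100 and 120, and by -4.43, -3.42, -3.89 and -3.75 in distal lung. LOC106991688 differed by -3.54, -2.44, -2.74 and -3.23 in proximal lung and by -3.35, -2.94, -3.55 and -3.80 in distal lung. The differences of LOC780463 were -1.88, -1.78, -1.83 and -1.27 in proximal lung and -1.62, -2.49, -2.26 and -1.95 in distal lung. None of these series moved steadily with age. BEX5 differed by -1.59, -1.47, -1.58 and -2.01 in proximal lung and by -1.11, -2.01, -1.43 and -2.39 in distal lung, with the widest gap of the 4 ages at day 120 in both regions.

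**Figure D2:**
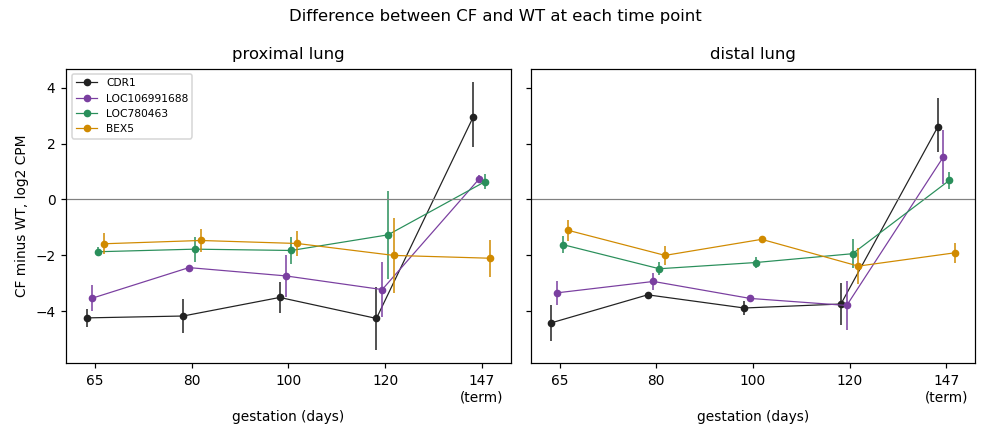
CF minus WT in log2 CPM at each age, in proximal lung (left) and distal lung (right). Points are differences between means of 2 libraries, vertical lines run from the smallest to the largest of the 4 differences between single libraries, and the grey line marks no difference. All points before term are below 0, and at term CDR1, LOC106991688 and LOC780463 are above 0 while BEX5 stays near -2.11 in proximal and -1.91 in distal lung.

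The genes were chosen on levels before term, but the term values were in view when this was done. The term libraries are therefore not an independent set, and the spread in the fit comes from all 20 libraries of a region. The comparison of the genotypes at term is at like depth. It asks whether the 4 genes still differed at term. By edgeR's quasi-likelihood test over all genes, with calls at a Benjamini-Hochberg adjusted p up to 0.001 and a log2 difference from 0.58, 1 of the 4 genes was called, in distal lung, where 1.25% of genes were. BEX5 was lower in CF distal lung, with a log2 difference of -1.88 (SE 0.29, adjusted p = 0.000976 by edgeR, n = 2 and 2), where 0.682% of 20084 genes were called lower. The call was lost when any 1 of the 4 distal term libraries was left out, WT or CF, with values of -2.15 to -1.71 and adjusted p of 0.00322 to 0.00588 by edgeR, and with counts thinned to equal depth (-1.44, adjusted p = 0.0142). In proximal lung BEX5 differed by -2.09 (SE 0.542, adjusted p = 0.0362 by edgeR). No member was called there, against 0.339% of 20344 genes in either direction. The number of genes called rested on single libraries, at 43 to 779 in distal lung without 1 of the 4, against 251, and at 4 to 165 in proximal lung, against 69, in each case lowest without CF replicate 2 and highest without CF replicate 1. At an unadjusted p under 0.05, 2 of the 4 members and 4055 of the 20344 genes passed in proximal lung, and DESeq2 called 1 member, CDR1, and 881 genes.

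CDR1 had a log2 difference of 2.79 in proximal lung at term (SE 0.617, adjusted p = 0.0174 by edgeR) and of 2.71 in distal lung (SE 0.531, adjusted p = 0.00431), and neither passed the limit. In distal lung 0.568% of genes were called higher. DESeq2 called CDR1 in both regions, with adjusted p of 9.71e-05 and 3.17e-06, among 881 genes in proximal and 1544 in distal lung. LOC106991688 had log2 differences of 0.72 in proximal (SE 0.462, adjusted p = 0.423 by edgeR) and 1.51 in distal lung (SE 0.411, adjusted p = 0.024). LOC780463 had 0.65 (SE 0.553, adjusted p = 0.571 by edgeR) and 0.70 (SE 0.263, adjusted p = 0.0861). Both CF libraries lay above both WT libraries for CDR1, LOC106991688 and LOC780463 in both regions, a pattern that 24.3% of genes showed in proximal and 22.8% in distal lung. Both CF libraries lay below both WT libraries for BEX5 in both regions, which 29.4% and 25.4% of genes showed.

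The 2 CF term animals stood apart from each other. The summed epithelial markers, in which SFTPC ranged from 3232 to 22821 CPM over the 4 CF libraries, were at 22626 CPM in replicate 1 and 8076 CPM in replicate 2 in proximal lung and at 27304 and 6266 CPM in distal lung, against 13091 to 20898 CPM in WT. The 6 glial markers were at 74.5 and 434.5 CPM in proximal and 92.5 and 389 CPM in distal lung, against 160.0 to 177 CPM in WT. Most of the glial sum was ERBB3, a receptor that epithelium also makes, at 70.9 to 432 CPM in CF and 149 to 166 CPM in WT, while the other 5 were each at 0.0772 to 2.93 CPM in CF. CDR1, LOC780463 and BEX5 were higher in replicate 2 than in replicate 1 in both regions, and LOC106991688 in distal lung. Without CF replicate 1 the log2 differences at term were 3.02 and 3.11 for CDR1, 0.62 and 1.84 for LOC106991688, 0.87 and 0.80 for LOC780463 and -1.77 and -1.71 for BEX5, in proximal and distal lung. Without CF replicate 2 they were 2.48 and 2.05, 0.78 and 0.98, 0.35 and 0.51, and -2.54 and -2.15. Without WT replicate 1 they were 3.92 and 3.15 for CDR1, 0.78 and 1.05 for LOC106991688, 0.66 and 0.51 for LOC780463 and -1.78 and -2.02 for BEX5. Without WT replicate 2 they were 2.16 and 2.32, 0.66 and 2.12, 0.64 and 0.85, and -2.34 and -1.78. The sign was the same in each case, no member was called in any, and the part of the cell types in these levels was not tested.

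The values at day 120 and at term are given without a p-value in either genotype, because the day 120 libraries belong to the contrast that chose the genes. A fit was run in CF, and nothing is read from its calls. In WT, CDR1 differed by -8.75 log2 units in proximal and -8.66 in distal lung, or 431-fold and 403-fold. LOC106991688 differed by -2.44 and -2.50 log2 units. LOC780463 differed by -0.10 and -0.08, and its day 120 and term libraries overlapped. BEX5 differed by -0.83 and -0.47, with overlap in distal lung.

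In CF distal lung LOC106991688 was at 61.8 and 132 CPM at day 120 and at 472 and 866 CPM at term, a log2 difference of 2.83. LOC780463 was at 16.4 and 30.9 CPM and then at 119 and 146 CPM, a difference of 2.55. CDR1 differed by -2.33 and BEX5 by 0.01. In CF proximal lung the differences were -1.55 for CDR1, 1.51 for LOC106991688, 1.80 for LOC780463 and -0.93 for BEX5. Term libraries were above both day 120 libraries for LOC106991688 and LOC780463 and below them for CDR1 in both regions, and those of BEX5 overlapped. In the fit over all genes none of the 4 was called, where 0.338% of 19508 genes were in distal lung and 0.0% of 19690 in proximal lung, and nothing is read from this. At an unadjusted p under 0.05, 2967 genes passed in proximal lung, where DESeq2 called 427. Without replicate 2 of CF proximal lung at day 120, the fitted difference of CDR1 was -2.26 in place of -1.73, that of LOC106991688 2.41 in place of 1.20, that of LOC780463 3.11 in place of 1.26 and that of BEX5 0.12 in place of -1.26. Without replicate 1 they were -0.88, 0.55, 0.47 and -1.95.

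Over days 65 to 120, CDR1 and BEX5 had lower values at day 120 than at day 65, and LOC106991688 and LOC780463 had no such trend in WT. In WT distal lung CDR1 held 145 and 229 CPM at day 65, 133 and 125 CPM at day 80, 108 and 98.7 CPM at day 100 and 36.5 and 45.6 CPM at day 120. In WT distal lung BEX5 held 53.2 and 62.5 CPM at day 65, 61.7 and 58.5 CPM at day 80, 33.7 and 36.9 CPM at day 100 and 18.5 and 30.2 CPM at day 120. For both genes the day 120 libraries were the lowest of the 4 ages and did not overlap the others. In WT, LOC106991688 was lowest at day 80 in both regions, at 844 and 817 CPM in proximal and 863 and 873 CPM in distal lung.

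An F test over the 4 ages by edgeR gave no call at 0.001 for any of the 4 genes in any of the 4 time courses. It used the libraries by which the genes were chosen. Its p-values and calls are therefore given as a description, and nothing is read from them. In WT proximal lung the adjusted p was 0.0167 for CDR1, 0.0259 for BEX5, 0.0316 for LOC106991688 and 0.122 for LOC780463, where 1.76% of genes were called. In WT distal lung it was 0.00252 for CDR1, 0.0127 for BEX5, 0.329 for LOC106991688 and 0.671 for LOC780463, where 0.782% of genes were called. The labels name 1 animal for the 2 WT libraries of day 100 in a region, and with these summed 128 of 18880 genes were called in proximal lung, against 320 of 18186, and 27 of 18975 in distal lung, against 143 of 18277. The adjusted p by edgeR was then 0.0378 and 0.0121 for CDR1, 0.0465 and 0.0423 for BEX5, 0.0386 and 0.557 for LOC106991688, and 0.286 and 0.851 for LOC780463, in proximal and distal lung. In CF distal lung it was 0.0121 for BEX5 and 0.164 for CDR1, with 0.205% of genes called, and in CF proximal lung the smallest was 0.629, with 0.0% called. Since no gene at all was called in CF proximal lung, the count there says nothing of the 4 genes. At an unadjusted p under 0.05, 4 members and 5091 of 18186 genes passed in WT proximal lung, 2 and 4903 of 18277 in WT distal, 2 and 4404 of 19508 in CF distal, and 0 and 1919 of 19690 in CF proximal lung. DESeq2 called 3 members among 2384 genes, 2 among 2223, 1 among 1642 and 0 among 637, in the same order. From day 65 to day 120 the log2 difference of BEX5 was -2.54 in CF and -1.26 in WT distal lung and -1.05 and -0.96 in proximal lung. That of CDR1 was -1.34 in CF and -2.20 in WT distal lung and -1.77 and -1.87 in proximal lung. The differences between the genotypes in these values were not tested.

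Between proximal and distal lung no difference of these genes was called before term. The contrast is over the libraries by which the genes were chosen, so its tests are given as a description and nothing is read from them. The log2 differences of proximal minus distal were -0.10 for CDR1, 0.03 for LOC106991688, -0.04 for LOC780463 and -0.03 for BEX5 in WT, with SE of 0.0887 to 0.151. In CF they were -0.26, 0.53, 0.48 and 0.15, with SE of 0.27 to 0.297. All adjusted p were 1 by edgeR, where 0.00534% of genes were called in WT and 0.0% in CF. No member had an unadjusted p under 0.05 and DESeq2 called none, while 380 genes in WT and 863 in CF had one.

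Per kilobase of exon, the order of the 4 genes changed between the sets of libraries. In WT before term the median levels were 960 CPM per kb for LOC106991688, 126 for LOC780463, 57.4 for CDR1 and 41.2 for BEX5. The ranges of CDR1, at 18.0 to 127 CPM per kb, overlapped those of LOC780463 and of BEX5. In CF before term CDR1 came last, with a median of 3.87 CPM per kb against 12.2 for BEX5, and their ranges overlapped. In both genotypes at term CDR1 was last without overlap, at 0.0278 to 0.0965 CPM per kb in WT and 0.228 to 0.513 in CF, where BEX5 held 10.6 to 17.0 and 2.29 to 4.86 CPM per kb.

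The library sets differed in depth, as the plot of level against depth shows. Before term no WT library was as deep as any CF library, so depth and genotype cannot be told apart there. The paper names no sequencing batches, and a batch that ran with depth could not be told apart from genotype either. With all counts thinned to 24670355 reads, the log2 differences before term were -4.04 and -3.87 for CDR1, -3.03 and -3.42 for LOC106991688, -1.74 and -2.10 for LOC780463 and -1.63 and -1.84 for BEX5, in proximal and distal lung. Thinning evens the totals and cannot part genotype from other differences between the library sets. At term, where depth was alike, CDR1, LOC106991688 and LOC780463 had differences of the other sign and BEX5 kept its sign. Term libraries also differ from the earlier ones in age, and WT term animals had been born. The part of depth in these levels was not tested.

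**Figure D3:**
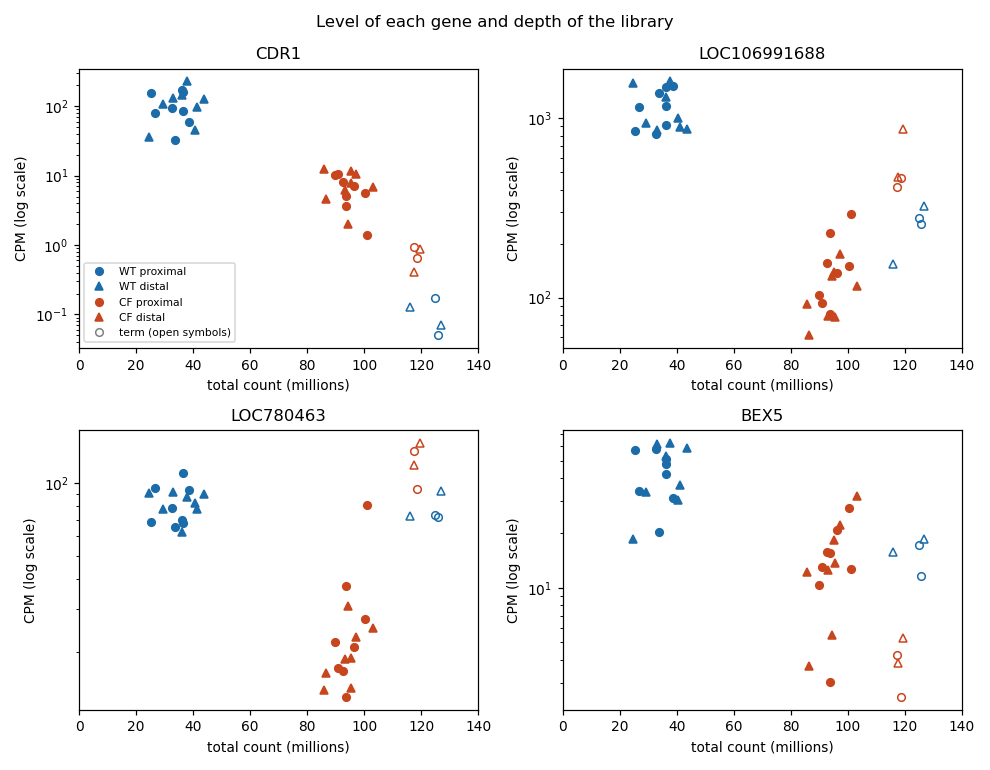
CPM on a log scale against the total count of the library, for each gene and all 40 libraries. Colours and shapes mark genotype and region, and open symbols are term libraries. WT before term lies at 24670355 to 43700012 counts and CF before term at 85773994 to 103139483, with no overlap, while term libraries of both genotypes lie at 115937437 to 126749480.

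The genes whose log2 CPM ran most like CDR1 over the 40 libraries were LOC101114226 (r = 0.947), LOC106991478 (0.934), PPIG (0.924), LOC101120528 (0.923), MEOX2 (0.919), EPC2 (0.916), USP3 (0.916), IFT74 (0.910), GPATCH2 (0.908) and MMP16 (0.908). PPIG encodes a nuclear cyclophilin, MEOX2 a homeobox factor of mesoderm, and MMP16 a membrane-bound matrix metalloproteinase. Before term MEOX2 had a median of 191 CPM in WT and 140 CPM in CF, and MMP16 122 and 84.1 CPM. These correlations are descriptions over libraries that share the 20 conditions and the split in depth. By Spearman's measure 4 of the 10 were among the first 10. Within the 16 WT libraries before term r of the 10 genes with CDR1 was 0.143 (EPC2) to 0.848 (PPIG), and within the 16 CF libraries 0.244 (LOC106991478) to 0.927 (LOC101120528).

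The genes most like BEX5 were KNOP1 (r = 0.896), RBM11 (0.882), KIAA0391 (0.881), TRIM13 (0.878) and PCNA (0.877), the last a clamp of DNA replication. The genes most like LOC106991688 were LOC105604520 (0.932), COPG2 (0.917), LOC101111401 (0.910), LOC105607844 (0.909) and LOC101106362 (0.898). COPG2, a subunit of the coat of transport vesicles, had a median of 43.1 CPM in WT and 19.2 CPM in CF before term. LOC101111401 bears the symbol of the linker histone H1-4 in the RefSeq table, with medians of 1.74 and 0.102 CPM. Within the genotypes before term the 5 ran less closely with LOC106991688, with r in WT and CF of 0.340 and 0.149 for LOC105604520, 0.421 and 0.406 for COPG2, -0.0461 and 0.623 for LOC101111401, 0.524 and 0.524 for LOC105607844, and -0.102 and 0.743 for LOC101106362. Those of BEX5 stayed at 0.721 to 0.904 in WT and 0.657 to 0.944 in CF.

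LOC780463 had its highest correlations with 3 other single-block loci, LOC105610137 on chromosome X (r = 0.990), LOC101118825 on chromosome 20 (0.988) and LOC106990881 on chromosome 1 (0.985). Its counts were 1.02 to 2.21 times theirs in every library, with medians of 1.21, 1.31 and 1.18 times. Whether these loci are near copies that share reads was not tested, since their sequences were not used here, so the level of LOC780463 is uncertain as that of 1 locus. The next most like genes were LOC101109380 (0.967) and RPL39 (0.951), a protein of the large ribosomal subunit. RPL39 had medians of 763 CPM in WT and 259 CPM in CF before term, and 596 and 1142 CPM at term.

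A list of ribosomal protein genes was added after these values were seen. Their summed level was 87775 to 126141 CPM in WT before term and 35456 to 186742 CPM in CF before term, with medians of 108930 and 62681 CPM. At term the medians were 91124 CPM in WT and 178965 CPM in CF. In CF distal lung before term 15 of 75 were called lower, where 1.65% of genes were, and all 75 had a lower value, with a median log2 difference of -0.79 against 0.03 over all genes. In proximal lung 0 of 75 were called, where 0.369% of genes were called lower, with a median of -0.47. At term none was called and the medians were 0.86 and 0.91. Over the 16 CF libraries before term the sum had r = 0.879 with LOC780463 and 0.790 with LOC106991688, against -0.481 with CDR1. Over the 16 WT libraries before term it was 0.609, -0.162 and 0.437 with the same genes. The CF values include the library that stood at 186742 CPM. Its part in the level of the 4 genes was not tested.

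Of the replication-dependent histones, whose messages end mostly in a stem-loop in place of a poly(A) tail, 5 linker histone H1 genes could be matched in the tables. Their summed level was 2.51 to 6.58 CPM in WT before term and 0.528 to 1.68 CPM in CF before term, and the ranges did not overlap. At term they held 1.65 to 2.49 CPM in WT and 0.999 to 6.03 CPM in CF. In distal lung before term 2 of 5 were called lower in CF, LOC101111401 (H1-4) at -4.22 (adjusted p = 5.82e-06 by edgeR) and LOC101113893 (H1-2) at -3.59 (adjusted p = 0.000977), where 1.65% of all genes were. In proximal lung 0 of 5 were called, where 0.369% of all genes were called lower, with a median log2 difference of -2.84. The median of the 5 in distal lung was -1.47, and 4 of 5 had a value below 0 in each region. The libraries were primed with oligo dT. The sum had r = 0.892 with LOC106991688 over the 40 libraries, 0.0807 in WT before term and 0.783 in CF before term, and the part of priming or RNA quality in these levels was not tested.

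**Figure D4:**
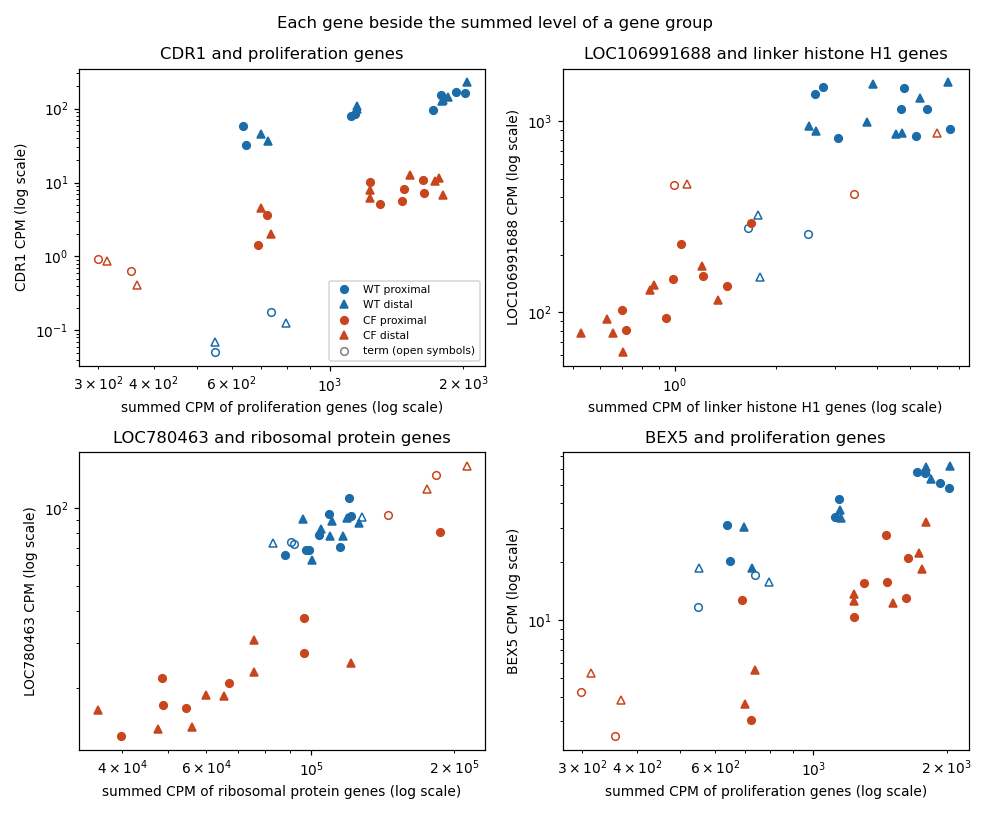
Each gene's CPM against the summed CPM of a gene group in the 40 libraries, both on log scales. CDR1 and BEX5 are set against 15 proliferation genes, LOC106991688 against 5 linker histone H1 genes and LOC780463 against 75 ribosomal protein genes. Before term the proliferation sums span 637 to 2038 CPM in WT and 688 to 1799 CPM in CF, and CDR1 spans 32.5 to 229 CPM and 1.41 to 12.5 CPM.

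The summed level of 15 proliferation genes differed more between ages than between genotypes before term, at 637 to 2038 CPM in WT and 688 to 1799 CPM in CF. Within an age the genotypes did not overlap in proximal lung: the WT libraries were at 2022 and 1927 CPM at day 65 and the CF libraries at 1634 and 1621 CPM, and at day 80 they were at 1788 and 1713 CPM against 1457 and 1468 CPM. At the later ages CF was the higher, with 1234 and 1301 CPM against 1141 and 1118 CPM in WT at day 100 and 722 and 688 CPM against 647 and 637 CPM at day 120. In distal lung they overlapped at day 120 only, with WT higher at days 65 and 80 and CF higher at day 100. Over the 4 ages 0 of 15 genes were called in either region, beside 2.13% of all genes called higher and 0.369% lower in proximal and 5.21% and 1.65% in distal lung. TOP2A, a topoisomerase of dividing cells, had medians of 290 and 220 CPM and MCM7, a subunit of the replication helicase, 188 and 180 CPM. Within a genotype before term the sum ran with CDR1 (r = 0.935 in WT and 0.824 in CF) and with BEX5 (0.909 and 0.826). At term 4 of 15 proliferation genes were called lower in CF proximal lung and 5 of 15 in CF distal lung, TOP2A by -3.49 and -3.08 log2 units, beside backgrounds of 0.246% and 0.682%. A value below 0 was had by 14 of 15 in proximal and 15 of 15 in distal lung, with medians of -1.83 and -1.74. Term sums were 549 to 796 CPM in WT and 299 to 368 CPM in CF.

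Of the 20 BEX, TCEAL, ARMCX and GPRASP genes in the tables, 19 remain without BEX5 and 18 were tested. In proximal lung before term 1 was lower in CF, where 0.369% of genes were, and in distal lung 2 were higher and 1 lower, beside 5.21% and 1.65%. The median log2 difference was -0.09 and -0.08, against 0.07 and 0.03 over all genes. The most abundant were ARMCX3, a mitochondrial outer membrane protein, with medians of 138 CPM in WT and 132 CPM in CF before term, and TCEAL8, with 142 and 90.6 CPM. TCEAL4 had 112 and 77.1 CPM and ARMCX1 86.8 and 76.4 CPM. Named after their values were seen, the called genes were TCEAL2 in proximal lung (-0.68, adjusted p = 0.000427 by edgeR) and, in distal lung, TCEAL8 (-0.62, adjusted p = 0.000798), the locus with the RefSeq symbol TCEAL3 (1.74, adjusted p = 0.000188) and GPRASP1 (1.65, adjusted p = 8.55e-05). None of the 18 was called at term in either region.

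The 14 measured genes with a link to miR-7, which the circular RNA antisense to CDR1 binds, gave no call in either region, before term or at term. Of all genes 2.13% were called higher and 0.369% lower in proximal lung before term and 5.21% and 1.65% in distal lung, and 0.339% and 1.25% in either direction at term, so that 0 of 14 is near the background. Their summed level was 967 to 1241 CPM in WT and 722 to 1062 CPM in CF before term. The most abundant, HNRNPK, an RNA-binding protein, had medians of 785 and 655 CPM in WT and CF before term. IRS1, an insulin receptor adaptor, had 60.2 and 55.3 CPM. The microRNA itself is not counted in these libraries.

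Neuronal markers were looked at because CDR1 and the BEX genes are known from brain. The sum of 9 of 10 listed markers was 29.7 to 274 CPM in WT before term, 20.4 to 331 CPM in CF before term, 16.004 to 62.3 CPM in WT at term and 11.6 to 37.9 CPM in CF at term. The sum of 6 glial markers was 78.2 to 130 CPM in WT and 55.6 to 149 CPM in CF before term, of which ERBB3 made up 74.5 to 124 CPM and 52.7 to 146 CPM. SOX10, a factor that defines glia, was at 0.0 to 0.450 CPM in WT and 0.0 to 1.86 CPM in CF. The sum of 6 of 7 neuroendocrine markers was 3.55 to 19.9 and 2.21 to 31.9 CPM. Red blood cell markers, 5 of 6, had sums of 13.3 to 127 CPM and 11.7 to 60.5 CPM, and cartilage markers, 3 of 4, of 3.88 to 400.3 and 11.3 to 465 CPM. These ranges pool ages that differ widely. The median log2 difference of CF from WT over the 4 ages was 1.18 for neuronal, 0.74 for neuroendocrine, 0.63 for glial, 1.20 for cartilage and -0.25 for red blood cell markers in proximal lung, against 0.07 over all genes. In distal lung the medians were 0.02, 0.14, 0.03, -0.06 and -0.80, against 0.03. These medians weigh genes alike at any level. In proximal lung the neuronal sums of the genotypes overlapped at every age. Both CF libraries were above WT in cartilage sums at days 80 and 120 and in neuroendocrine sums up to day 80. Glial sums were lower in CF at day 120. At day 120 CF replicate 2, which stood apart above, had 57.3 CPM for neuronal and 89.7 CPM for cartilage markers. CF replicate 1 had 27.5 and 13.3 CPM, and WT 34.4 to 39.5 and 11.6 to 12.2 CPM. None of these markers was called before term, beside 2.13% of all genes higher and 0.369% lower in proximal and 5.21% and 1.65% in distal lung, and none was at 0 in every library of a set. At term red blood cell markers were at 1.40 to 3.66 CPM in WT and 5.02 to 10.2 CPM in CF, without overlap, and 0 were called, where 0.339% of genes were in proximal and 1.25% in distal lung. The part of these cell types in the levels of the 4 genes was not tested. Of 10 epithelial markers EPCAM was called lower in CF before term, by -0.71 in proximal and -0.67 in distal lung, and no other was called. The list as a whole had a median log2 difference of 0.14 in proximal lung, with 3 of 10 below 0, and of -0.01 in distal lung, with 5 of 10 below 0.

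The CF animals were cloned, and 18 of 26 listed imprinted genes were measured. None was called in proximal lung before term and 1 was higher in CF in distal lung, DLK1 at 1.54 (adjusted p = 0.000651 by edgeR), named after its value was seen, beside 5.21% of all genes. At term 0 were called in proximal lung, where 0.339% of genes were, and 1 was called higher in distal lung, where 0.568% were. This was RTL1, at 0 to 0.00837 CPM in the WT and 0.155 to 1.32 CPM in the CF term libraries of both regions. The sum was 2918 to 3949 CPM in WT and 1426 to 4982 CPM in CF before term, and 631 to 998 CPM in WT and 1285 to 2781 CPM in CF at term, without overlap. Of 729 genes of chromosome X tested in proximal lung, CDR1 and BEX5 apart, 13 were higher and 5 lower in CF before term, where 2.13% and 0.369% of all genes were, and of 727 in distal lung 37 and 14 were, beside 5.21% and 1.65%. The median log2 difference of these genes was -0.04 and 0.02, against 0.07 and 0.03 over all genes.

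The nearest annotated genes on either side of CDR1, LOC101113919 at 89.4 kb and LOC105605563 at 22.8 kb, had medians of 0.0927 and 0.737 CPM in WT and 0.226 and 0.829 CPM in CF before term. Both medians were higher in CF, but the ranges overlapped. They were 0 to 0.768 CPM in WT and 0.0921 to 0.725 CPM in CF for LOC101113919, from 0 to 28 and 10 to 69 reads. For LOC105605563 they were 0.330 to 2.01 and 0.535 to 1.46 CPM. No direction is read from values this low. Beside BEX5, TCEAL2 at 16.001 kb had 65.9 to 98.0 CPM in WT and 44.4 to 71.4 CPM in CF before term, and LOC101122258 at 92.7 kb had medians of 0.0593 and 0.178 CPM.

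LOC101111397 lies 0.036 kb from LOC106991688 on the other strand and had medians of 0.362 CPM in WT and 0.865 CPM in CF before term, while MIF, a cytokine gene at 18.2 kb, had 27.7 and 52.2 CPM. Both had higher medians in CF, with overlapping ranges. These were 0 to 0.856 and 0.349 to 3.51 CPM for LOC101111397 and 13.4 to 110 and 21.6 to 112 CPM for MIF, in WT and CF. LOC780463 lies between PTPRG, a receptor phosphatase, at 184 kb and FHIT, a nucleotide hydrolase, at 91.1 kb, which had medians of 114 and 118 CPM and of 4.53 and 3.93 CPM in WT and CF before term.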

How the data were processed

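The authors aligned 100 bp paired reads from oligo dT-primed libraries with STAR to Oar_v4.0 and counted them per gene by featureCounts 1.6.3. The values the authors deposited are these counts, without normalization. The labels' tool list and the study's methods name different STAR releases. The annotation release, strand setting and treatment of mates are not given in the sources used here. A further deposited table of counts repeats the CF columns and was not used. The tests used edgeR 4.0.16, which runs on limma 3.58.1, with DESeq2 1.42.0 as an alternative, all under R 4.3.3. The filter was filterByExpr (minimum 10, total 15), followed by glmQLFit and glmQLFTest, with 1 mean per condition, in the 20 libraries of a region for genotype, the 10 of a time course for age and the 20 of a genotype for region. Calls needed an adjusted p of 0.001 or less and, except in F tests, a log2 difference of 0.58 or more. The SE is the log2 difference over the square root of F. The procedure was tested on simulated data, where many changed genes were not called, so a missing call does not show an unchanged gene. Log2 CPM had a prior count of 0.5.

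The members and lists were chosen with earlier results of these data known. Genes were named by this rule: the 4 members, up to 4 most abundant genes of a list, the 10 genes with the highest Pearson r with CDR1 and the 5 for each other member, and the nearest gene on each side. Same-numbered proximal and distal libraries carry 1 animal label, so they pair the regions, except at day 100 in WT. The correlation of their deviations was -0.0492 to 0.493, over 0.1 in 6 of 10 pairs. RefSeq's table of another assembly was used for names only, and 1 of the 4 members, BEX5, was in it. No listed small non-coding RNA was matched in the tables.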

Additional observations from a re-analysis of the deposited data

Results flagged for a closer look

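Several differences changed sign between ages, with all libraries of each group on opposite sides, and none of these changes of sign was tested. For CDR1, CF minus WT was below 0 at each earlier age and at term was 2.94 log2 CPM in proximal and 2.58 in distal lung. For LOC106991688 it was 0.72 at term in proximal and 1.52 in distal lung. For LOC780463 it was 0.68 at term in distal lung. From day 120 to term, LOC106991688 differed in CF by 1.51 log2 CPM in proximal and 2.83 in distal lung, while both WT term libraries of each region were below both day 120 libraries. Each group holds 2 libraries.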

How the results depend on the processing

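CDR1 in WT at term rests on 6 to 20 reads, where counting error is large. With 2 libraries per condition, a gene that was not called is not shown to be equal. Before term the differences kept their sign under RLE size factors, no TMM, a prior count of 2, thinning and without any 1 library. Since the genes were chosen for large differences of this sign in these libraries, nothing is read from the kept sign. The differences moved by more than 1 SD in single ages of distal lung: CDR1 was at -4.43 at day 65 and -3.42 at day 80, LOC106991688 at -2.94 at day 80 and -3.80 at day 120, LOC780463 at -1.62 at day 65 and -2.49 at day 80, and BEX5 at -1.11 at day 65 and -2.39 at day 120.

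With an adjusted p of 0.05, 2 members were called at term in proximal and 3 in distal lung, 3 from day 120 to term in CF distal lung, and 3, 2 and 1 over days 65 to 120 in WT proximal, WT distal and CF distal lung. Among all genes 1237 of 20344, 2892 of 20084, 4477 of 19508, 2629 of 18186, 2341 of 18277 and 1289 of 19508 were called. DESeq2 called 1, 2, 3, 3, 2 and 1 members among 881, 1544, 2426, 2384, 2223 and 1642 genes. The day 120 to term counts and those over days 65 to 120 use libraries by which the genes were chosen, so nothing is read from them. At term in distal lung 0 were called with thinned counts, among 192 of 18420 genes, and 0 to 0 without any 1 library, against 1. Without the filter on low counts 1 was called over days 65 to 120 in WT distal lung, CDR1 (adjusted p = 0.000985 by edgeR), among 303 of 22027 genes. Nothing is read from this call either.

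The replicate block called 1 member from day 120 to term in CF distal lung, LOC780463, among 82 of 19508 genes, against 0, from which nothing is read for the same reason. It changed no other count of members called. The number of genes called moved from 320 to 153 in WT proximal and from 143 to 84 in WT distal lung over days 65 to 120. At term it moved from 69 to 52 in proximal and from 251 to 361 in distal lung. Across genotypes and ages the samples share only a number: deviations of same-numbered libraries had r of -0.0567 to 0.188 between genotypes and -0.347 to 0.503 between ages. From day 120 to term in CF distal lung BEX5 was at 0.052 with RLE, 0.57 with thinned counts, 0.051 with DESeq2 and 0.0017 with the replicate block, and at -0.26 to 0.29 without any 1 library. The cause was not tested.

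Other values that changed sign without 1 library were none of them called. BEX5 from day 120 to term in CF proximal lung ran from -1.95 to 0.12. From day 65 to day 120, LOC106991688 ran from -0.039 to 0.30 in WT proximal, -0.47 to 1.39 in CF proximal and -0.56 to 0.10 in WT distal lung. LOC780463 ran from -0.076 to 0.40 in WT proximal, -0.50 to 2.13 in CF proximal, -0.032 to 0.45 in WT distal and -0.53 to 0.36 in CF distal lung. Between regions, LOC106991688 ran from -0.038 to 0.13, LOC780463 from -0.11 to 0.029 and BEX5 from -0.11 to 0.073 in WT, and BEX5 from -0.20 to 0.32 in CF.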
